A study of Mus musculus with 8 samples.

Results

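Intronic peaks that the authors listed after interleukin-33 (IL-33) and not after vehicle numbered 10603 of the 104981 open-chromatin peaks in the study. They were taken from the deposited peak table as the peaks named in the IL-33 list, absent from the vehicle list and annotated to an intron. They made up 53.7% of the 19758 peaks listed under IL-33 alone. A further 9304 peaks were listed under vehicle alone and 75919 under both. The assay was bulk ATAC-seq, in which a transposase cuts accessible DNA, on cortical microglia that had been sorted by flow cytometry. The IL-33 group was 4 mice at postnatal day 30 killed 4 hours after IL-33 was injected into the cerebral ventricle of one side. The vehicle group was 4 mice of the same age injected with vehicle and killed at the same time, and 2 mice of each group were female. No genotype, strain or allele is given in the labels, and a library holds all sorted microglia of one mouse. The question named in the series title is how IL-33 bears on pattern recognition by microglia.

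IL-33 is an alarmin of the interleukin-1 family, released in brain mainly by astrocytes and oligodendrocytes. It binds the receptor ST2 with the accessory protein IL1RAP, and the adaptor MyD88 and the kinases IRAK and TAK1 then activate NF-kB and the MAP kinases. In macrophages many enhancers lie in introns, and signal-induced factors such as NF-kB and AP-1 act there with the lineage factors PU.1, RUNX and C/EBP. A peak marks accessible DNA and not binding or transcription, and its nearest gene is an assignment by distance.

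Sequence could be read for the few of these intronic peaks that overlap an annotated start site, because RefSeq start windows (250 bases before to 50 after a start, build GRCm38.p6, the assembly of mm10) were the one source of mouse sequence used. The overlap with a window held for 56 of them, or 0.53%, against 376 (1.14%) of the intronic peaks in both lists. Of the 56, 15 were raised by IL-33 in the limma fit described below. Of those 15, 9 had at least 150 bases inside a window, and the 3 of the 9 that hold the AP-1 letters TGANTCA are printed here, a choice made after their values were seen. Each belongs to the start of a predicted gene, lies in an intron of another gene (E230016K23Rik for the one nearest to Ccl6) and runs 5′ to 3′ on the strand of that predicted gene. Capitals mark TGANTCA and the C/EBP letters TTGCNNAA, searched on both strands, and no match overlaps another. Letters for sites of NF-kB, PU.1, RUNX, IRF and STAT factors were searched too and had no match in the 3 stretches.
Gm36043, in intron 6 of Cd274, chr19:29384981-29385201, minus strand: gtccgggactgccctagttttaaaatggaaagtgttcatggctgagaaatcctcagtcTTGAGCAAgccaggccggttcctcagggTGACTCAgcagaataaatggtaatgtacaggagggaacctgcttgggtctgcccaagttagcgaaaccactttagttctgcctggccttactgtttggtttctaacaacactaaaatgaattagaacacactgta
Gm38933, nearest to Ccl6, chr11:83604766-83604932, minus strand: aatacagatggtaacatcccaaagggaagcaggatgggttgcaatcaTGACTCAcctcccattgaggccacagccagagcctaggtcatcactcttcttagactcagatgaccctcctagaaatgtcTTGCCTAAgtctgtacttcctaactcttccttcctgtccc
Gm46272, in intron 1 of Aftph, chr11:20740431-20740681, plus strand: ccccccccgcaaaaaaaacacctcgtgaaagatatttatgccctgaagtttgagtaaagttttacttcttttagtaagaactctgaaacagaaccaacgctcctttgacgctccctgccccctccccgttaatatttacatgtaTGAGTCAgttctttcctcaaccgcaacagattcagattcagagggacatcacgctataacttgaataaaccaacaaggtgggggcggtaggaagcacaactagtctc

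At the same offset from the start, the AP-1 letters occurred in 6.13%, 4.46% and 6.58% of all 32851 RefSeq windows for the Gm36043, Gm38933 and Gm46272 stretches. The C/EBP letters occurred in 8.80% for the Gm36043 stretch and 5.33% for the Gm38933 stretch. A match of letters is a description and not a binding site. The peak in Cd274, which encodes the checkpoint ligand PD-L1, had 21.03, 11.2, 15.7 and 26.2 scaled tags (tags in the peak per 10000000 in the library) in IL-33 libraries 1 to 4, against 8.19, 7.0, 4.45 and 2.93 in vehicle libraries 1 to 4. The peak near the chemokine gene Ccl6 had 7.01, 8.72, 6.37 and 9.25 tags in IL-33 libraries, against 0.77, 4.36, 0.23 and 0.70 in vehicle libraries. At Aftph, which encodes a clathrin-associated trafficking protein, the values were 9.82, 5.78, 8.41 and 9.0 in IL-33 libraries, against 2.30, 5.42, 4.33 and 0.70 in vehicle libraries. In all 3 peaks the groups did not overlap. The Aftph groups lay close, with the lowest IL-33 library next to the highest vehicle library.

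All values are tags in a peak scaled by the authors to 10000000 per library, and a mean is given as ± SD over 4 libraries. Libraries held 35842688 to 43857673 tags, so a floor of 3 reads corresponds to 0.342 to 0.418 scaled tags. The share of tags inside peaks was 24.3% ± 7.89 in IL-33 libraries and 25.4% ± 3.15 in vehicle libraries (SD, n = 4 each; p = 0.857 in a two-sided exact permutation test that cannot go below 0.0286). IL-33 library 2 stood apart at 14.2%, and values per library total were low there across peaks. Promoter peaks of 9 of 10 microglial marker genes were present, 2 of them lowered, with summed levels of 259 to 585 tags in IL-33 libraries and 459 to 669 tags in vehicle libraries. Of the neutrophil markers, S100a9, Ly6g and Mpo had no promoter peak, while S100a8 and Camp together had 7.90 to 13.6 tags in IL-33 libraries and 2.94 to 7.41 tags in vehicle libraries. The Camp promoter was raised. Promoter peaks were found for 1 of 6 neuronal, 1 of 6 lymphocyte, 1 of 5 monocyte and border macrophage, 2 of 5 endothelial, 2 of 6 oligodendrocyte and 3 of 6 astrocyte markers, and none of these was raised or lowered. The part of the microglial and neutrophil differences in the results was not tested, and more open sites per cell and more cells with the site cannot be told apart in bulk libraries. The columns name the group and not the mouse. The permutation p-value sets the difference of the group means against reassignments of these libraries to groups, while a limma call rests on an error pooled over all peaks.

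The intronic peaks listed after IL-33 alone were weak sites, as were other classes listed in a single group. Median levels over IL-33 and vehicle libraries were 6.05 and 3.30 tags for intergenic peaks listed under IL-33 alone. For intronic peaks listed under vehicle alone they were 3.72 and 5.86, and for the 33010 intronic peaks in both lists 14.1 in both groups. The intronic peaks listed under IL-33 alone had a median level of 6.01 tags over IL-33 libraries and 3.37 over vehicle libraries. The median per library was 7.01, 4.36, 5.6 and 7.61 tags in IL-33 libraries 1 to 4, against 3.45, 3.57, 2.85 and 3.35 in vehicle libraries 1 to 4. Each IL-33 library thus lay above all vehicle libraries, and library 2 lay nearest to them. The peaks held 3.22%, 3.93%, 3.34% and 3.39% of all tags in peaks in IL-33 libraries, against 1.62%, 1.58%, 1.72% and 1.57% in vehicle libraries. On this measure, which is relative to the tags in peaks, library 2 was the highest of the 4. Few sites were empty: 4 to 16 of the 10603 had at most 3 reads in an IL-33 library, and 150 to 378 in a vehicle library.

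**Figure D1:**
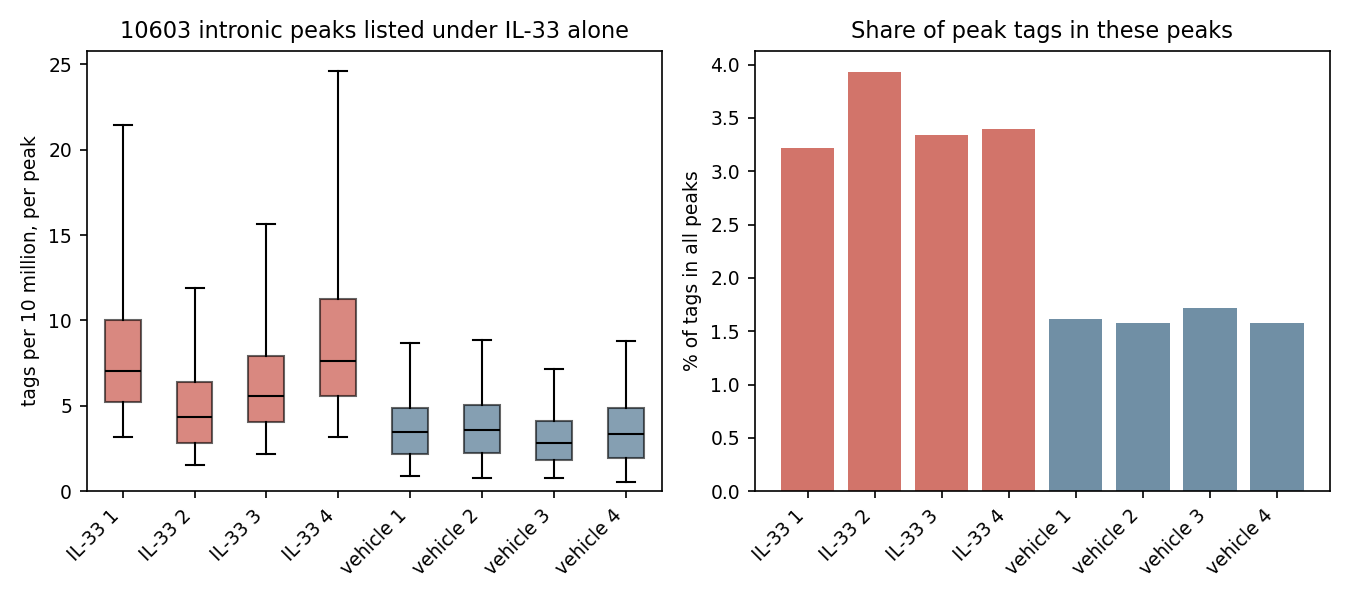
Left, scaled tags per peak for the 10603 intronic peaks listed under IL-33 alone, by library, with boxes for the quartiles, a line for the median and whiskers from the 5th to the 95th percentile. Right, the percentage of all tags in peaks that lies in them, which was 3.22 to 3.93% in the 4 IL-33 libraries and 1.57 to 1.72% in the 4 vehicle libraries.

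The list chose these peaks for the difference between the groups, so its size is given as a description only. The median log2 change, on log2(tags + 1.15), was 0.66 with quartiles of 0.30 and 1.14, against -0.12 over all peaks, -0.14 for intronic peaks in both lists and -0.53 for the 4628 intronic peaks listed under vehicle alone. For the 6475 intergenic peaks listed under IL-33 alone it was 0.72. In limma, with Benjamini-Hochberg adjustment over all 104981 peaks and a threshold of 0.05, 3726 of the 10603 were raised (35.1%) and 9 were lowered. Over all peaks 9.83% were raised and 5.02% lowered. The 4 IL-33 libraries all lay above the 4 vehicle libraries at 3414 of them (32.2%), against 8.98% of all peaks, and all below at 14, against 5.83% of all peaks. edgeR's quasi-likelihood test on the recovered reads called 3435 raised and 7 lowered with total tags as library size, with 9.68% and 3.71% over all peaks. With TMM scaling it called 4835 raised and 19 lowered, with 17.4% and 12.2% over all peaks. The standard error of every log2 change in limma was 0.34, the same for all peaks. A limma call as deposited was thus a cut on the log2 change and not a test against a peak's own spread. Nothing is read from these counts, since the same contrast made the list.

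Being listed under IL-33 alone did not mean that a site was closed in vehicle. The IL-33 mean was more than 2-fold the vehicle mean at 4571 of the peaks (43.1%), more than 4-fold at 1500 (14.1%) and more than 10-fold at 276 (2.60%). At 804 (7.58%) the vehicle mean was the higher of the pair. Binned by IL-33 mean, one side of the contrast that makes the call, the share raised was 14.6% of the 3319 peaks with an IL-33 mean under 5 tags, 34.1% of the 5399 from 5 to 10, and 73.4% of the 1483 from 10 to 20. It was 77.7% of the 367 from 20 to 50 tags and 77.1% of the 35 at 50 or more. In the same bins 0%, 0.154%, 4.19%, 10.2% and 11.2% of the intronic peaks in both lists were raised, and since the bins and the list share the contrast, nothing is read from these shares. Weak peaks were a smaller share of the intronic peaks in both lists, where 1278 (3.87%) had an IL-33 mean under 5 tags. Among the intronic peaks listed under IL-33 alone the share was 31.3%.

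**Figure D2:**
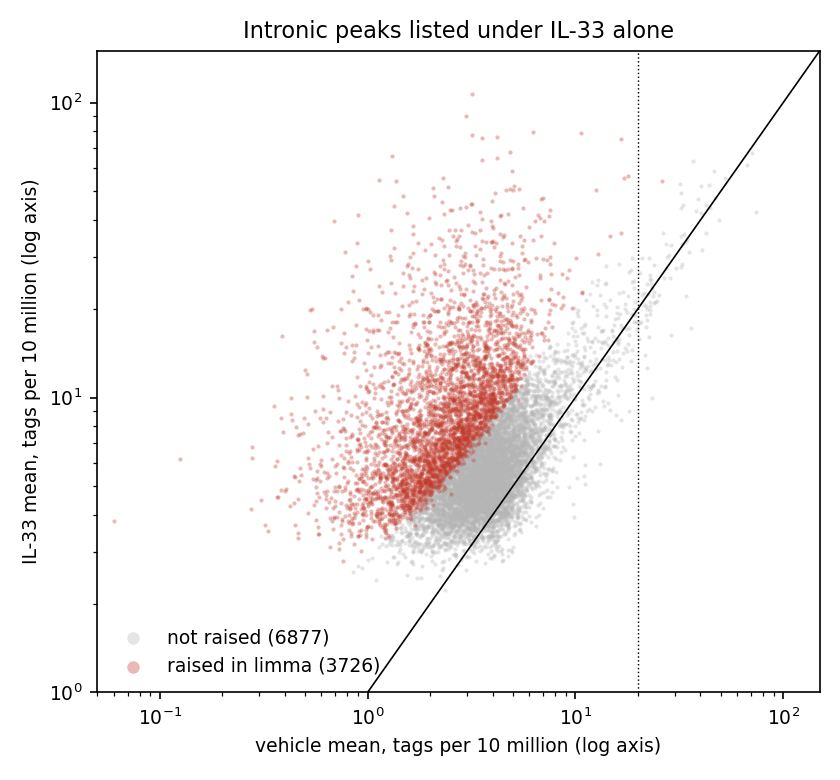
Mean scaled tags in vehicle libraries (x, log axis) and in IL-33 libraries (y, log axis) of each of the 10603 peaks, n = 4 libraries per group, with 3726 raised peaks in red and the others in grey. The solid line marks equal means, and right of the dotted line are the 79 peaks with a vehicle mean of 20 tags or more, which lie along the line of equality.

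A set of 79 peaks had a vehicle mean of at least 20 tags in spite of the list. Their median level was 27.5 tags in IL-33 libraries and 26.8 in vehicle libraries, with a median log2 change of -0.05, and 1 was raised and 2 lowered. All 79 lay within 500 bases of a peak that the authors did list under vehicle, and 56 lay within 1 kb of a start site. Over all the intronic peaks listed under IL-33 alone, 29.5% lay within 500 bases of a vehicle-listed peak. An example is the peak in intron 4 of Vsig10l, 58 bases from a vehicle-listed peak (chr7:43465789-43466030). It had 86.8, 31.8, 60.5 and 91.4 tags in IL-33 libraries, against 72.7, 73.7, 59.6 and 77.7 in vehicle libraries, and the groups overlapped. The peaks in intron 1 of the glycolytic enzyme gene Aldoa (49.5 ± 10.1 tags in IL-33 libraries, 32.2 ± 5.52 in vehicle libraries), of the integrin gene Itgb1 (28.3 ± 6.31 after IL-33 and 23.9 ± 2.27 after vehicle) and of Cyrib, a Rac1-binding regulator listed here as Fam49b (29.7 ± 10.3 after IL-33 and 20.97 ± 4.14 after vehicle), were of this kind. They lay 21 to 66 bases from a vehicle-listed peak and were not called as deposited.

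The lowest log2 changes were at such neighbouring sites as well. The peak in intron 10 of Nfia, assigned by distance to Tm2d1, had 18.4, 8.37, 11.9 and 30.3 tags in IL-33 libraries, against 40.6, 35.8, 29.0 and 38.4 in vehicle libraries. It lay 40 bases from a vehicle-listed peak. At Rtn4rl1, which encodes a Nogo receptor homologue, the means were 9.95 ± 3.46 tags in IL-33 libraries and 23.3 ± 6.08 in vehicle libraries (SD, n = 4 each), and at Cdrt4os1 they were 3.95 ± 1.83 after IL-33 and 9.82 ± 2.47 after vehicle. With log2 changes of -1.15, -1.17 and -1.15 these 3 were lowered in limma. Only at Tm2d1 did the groups overlap. Each of the 3 calls was lost when a particular single library was left out.

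The strongest sites stood far above the rest. The highest IL-33 mean was at a peak in intron 2 of Ikbke, which encodes the kinase IKK-epsilon (chr1:131276872-131277175). It had 120.2, 70.9, 101 and 136 tags in IL-33 libraries, against 3.33, 4.23, 2.05 and 3.07 in vehicle libraries, a log2 change of 4.63. The next was in intron 8 of Slc11a1, the gene of the phagosomal metal transporter NRAMP1 (chr1:74381581-74381837), with 119, 54.4, 82.9 and 103 tags in IL-33 libraries, against 3.20, 2.25, 3.65 and 2.79 in vehicle libraries. At both sites every IL-33 library was above every vehicle library by a wide margin, and library 2 was the lowest of its group.

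A peak in intron 8 of Pik3cg, the catalytic subunit of PI3 kinase gamma, had 95.2, 40.3, 76.4 and 98.1 tags in IL-33 libraries, against 1.41, 5.28, 1.37 and 4.60 in vehicle libraries (chr12:32194401-32194656). Genes of its regulatory subunits had such a site too, as intron 1 of Pik3r5, nearest to Pik3r6, held 39.7 ± 12.2 tags in IL-33 libraries and 3.94 ± 1.24 in vehicle libraries. The podoplanin gene Pdpn had 79.3 ± 24.9 tags in IL-33 libraries and 6.22 ± 3.64 in vehicle libraries in its intron 1, with 11.02 in vehicle library 4. The potassium-chloride cotransporter gene Slc12a7 (78.9 ± 20.1 after IL-33 and 10.7 ± 2.60 after vehicle) and the endocytic receptor gene Lrp1 (75.1 ± 24.2 after IL-33 and 16.5 ± 1.51 after vehicle) were already open to a degree in vehicle, and their peaks lay 166 and 193 bases from a vehicle-listed one. The adenosine receptor gene Adora2a had 67.9 ± 19.1 tags in IL-33 libraries and 4.83 ± 0.98 in vehicle libraries, in a stretch annotated as the old interspersed repeat MIR3.

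The largest log2 changes were at sites with close to no signal in vehicle. At Gng7, a G protein gamma subunit gene, single libraries had 80.1, 44.7, 60.4 and 77.8 tags after IL-33, against 1.15, 1.06, 2.74 and 0.28 after vehicle (log2 change 4.82). At Mgll, whose enzyme breaks down the endocannabinoid 2-AG, they had 67.6, 35.7, 55.7 and 59.8 after IL-33, against 1.54, 1.98, 1.03 and 0.00 after vehicle (4.66). A read was worth 0.114 to 0.139 scaled tags in a vehicle library, so these vehicle values rest on few reads and the size of the change depends on the pseudocount. Dagla, whose enzyme makes 2-AG, had a peak in intron 1 with 43.3 ± 15.0 tags in IL-33 libraries and 7.51 ± 1.61 in vehicle libraries, 41 bases from a vehicle-listed peak.

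Genes of 3 bZIP transcription factors were among the 10 largest changes. The peak in intron 2 of Batf, whose product pairs with JUN proteins, had 48.1, 28.9, 35.3 and 54.5 tags in IL-33 libraries, against 1.02, 0.79, 1.37 and 0.42 in vehicle libraries. Nfe2l1, a regulator of proteasome genes, had 54.1 ± 14.3 tags in IL-33 libraries and 1.37 ± 0.37 in vehicle libraries. A peak in intron 7 of Spidr was assigned to Cebpd, which lies 97.1 kb away and encodes C/EBP-delta, and had 39.8 ± 16.4 tags in IL-33 libraries and 0.69 ± 0.46 in vehicle libraries. The changes were 4.36, 4.43 and 4.39 on the log2 scale. Rassf4, a RAS-association gene (48.2 ± 15.0 after IL-33 and 1.48 ± 0.93 after vehicle), and Sgce, the epsilon-sarcoglycan gene (44.7 ± 19.3 after IL-33 and 1.34 ± 0.66 after vehicle), completed this set. Of the 17 peaks with the highest levels or largest changes, the groups did not overlap at 16, the exception being Vsig10l. All IL-33 libraries lay above all vehicle libraries at 32.2% of the intronic peaks listed under IL-33 alone and at 8.98% of all peaks. The 17 were chosen for level or change in the same libraries, which fixed much of this, and nothing is read from the count.

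**Figure D3:**
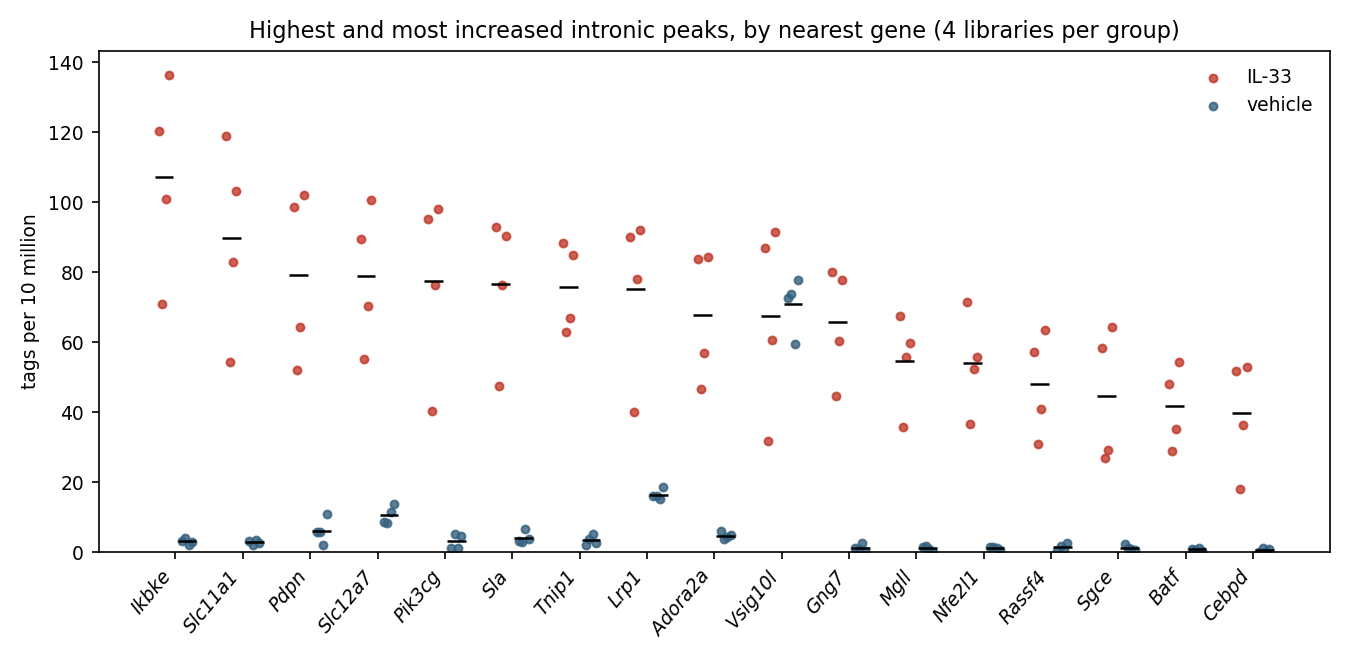
Scaled tags per library (y) at the 17 intronic peaks with the highest IL-33 means or the largest log2 changes, named by nearest gene and ordered by IL-33 mean. Red points are the 4 IL-33 libraries, blue points the 4 vehicle libraries and bars the group means; only at Vsig10l do the colours overlap.

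Many of the peaks lay in runs along single genes. With peaks joined where the gap was at most 10 kb, the 10603 fell into 7018 chains, of which 5183 held a single peak and 175 held at least 5, with 1391 peaks in all. The one with the most peaks, in Zeb2, which encodes a zinc finger factor of macrophage identity, held 44 peaks over 95.6 kb of chromosome 2, of which 18 were raised. Their summed level was 337, 260.5, 297 and 334 tags in IL-33 libraries, against 148, 172, 126 and 149.9 in vehicle libraries. No peak of that chain was strong, the highest IL-33 mean being 15.8 tags.

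Chains in signalling genes followed. Prex1, a guanine nucleotide exchange factor for Rac, had a chain of 40 peaks over 101 kb, with summed means of 293 ± 35.7 tags in IL-33 libraries and 135 ± 14.3 in vehicle libraries. Pik3ap1, which encodes the adaptor BCAP that links Toll-like receptors to PI3 kinase, had 37 over 93.9 kb, and 30 of them were raised (264 ± 22.6 after IL-33 and 92.0 ± 12.5 after vehicle). Pik3r5 had 26 over 59.0 kb with 23 raised (242 ± 11.9 after IL-33 and 64.8 ± 12.1 after vehicle). Its sums of 245, 256, 238 and 228 tags in IL-33 libraries differed little between libraries, library 2 included.

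Pfkfb3, whose enzyme makes the activator of phosphofructokinase in glycolysis, had a chain of 25 peaks over 68.6 kb with 20 raised, and summed means of 210.4 ± 21.8 tags in IL-33 libraries and 63.4 ± 4.44 in vehicle libraries. Its strongest peak, in intron 1, had 33.5 ± 13.5 tags in IL-33 libraries and 0.89 ± 0.50 in vehicle libraries. Fyb, an adaptor of integrin signalling, had 29 peaks (195 ± 21.7 after IL-33 and 64.8 ± 6.91 after vehicle), the Src-family kinase gene Lyn 24 (199 ± 40.4 after IL-33 and 64.1 ± 10.9 after vehicle), and Sla, a Src-like adaptor gene that lies inside the thyroglobulin gene Tg, 24 (205 ± 50.4 after IL-33 and 70.5 ± 8.10 after vehicle). In each of the 8 chains with the most peaks the 4 IL-33 sums lay above the 4 vehicle sums. The list chose these peaks for this difference, so the sums are a description. No peak of any kind was lowered in the spans of the 20 chains with the most peaks, against 5.02% of all peaks. The list fixed much of this, as 406 peaks of these spans belonged to it, and nothing is read from it. Of the 20 chains 6 lay on chromosome 2, which held 9.81% of the intronic peaks listed under IL-33 alone.

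**Figure D4:**
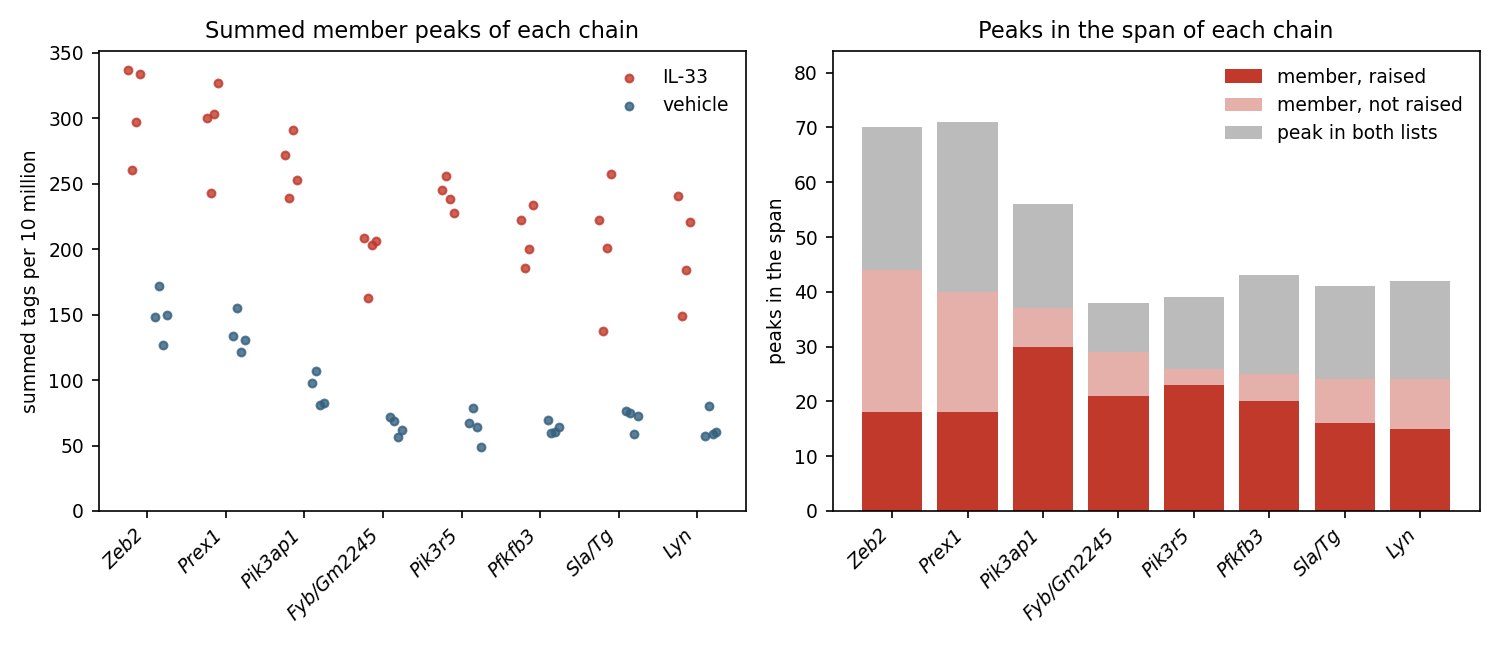
Left, scaled tags per library summed over the intronic peaks listed under IL-33 alone in each of the 8 chains with the most peaks (gaps of at most 10 kb), named by host gene, with 4 IL-33 libraries in red and 4 vehicle libraries in blue. Right, the number of those peaks raised in limma, not raised, and of peaks in both lists in the same span; the Pik3ap1 chain had 30 raised of 37 and the Zeb2 chain 18 of 44.

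Counted by host gene, the peaks lay in 4861 genes, 2879 of which held 1 and 112 held at least 10. Prex1 had 51 of its 88 intronic peaks listed under IL-33 alone, Zeb2 47 of 70, Pik3ap1 38 of 64 and Lyn 37 of 66, where 22.0% of all intronic peaks were of this kind. Shares varied among the 25 hosts with the most, and large genes with many intronic peaks such as Elmo1 (20 of 95) and Frmd4a (19 of 90) had 21.1% each. The adhesion gene Lpp had 34 of 59, of which 26 were raised, with summed levels of 467, 225, 338 and 511 tags in IL-33 libraries, against 96.1, 98.7, 76.0 and 98.5 in vehicle libraries. Promoters of these hosts showed no called change. Of the 25 hosts with the most such peaks 23 had a promoter peak, and 0 of the 23 were raised or lowered in limma, with log2 changes between -0.78 and 0.68. The Prex1 promoter had 119 ± 20.5 tags in IL-33 libraries and 128 ± 24.1 in vehicle libraries, the Lyn promoter 91.3 ± 30.5 after IL-33 and 85.2 ± 9.03 after vehicle, and the Pfkfb3 promoter 92.9 ± 29.6 after IL-33 and 82.2 ± 10.1 after vehicle. Across all 12096 genes with a promoter peak 1.83% had a raised one and 1.24% a lowered one. A count of 0 among 23 is therefore not read as a result. The share raised was 3.40% of the 353 genes with at least 5 of the intronic peaks and 1.71% of the 8128 with none. Among the 254 genes with at least 3 raised intronic peaks of this kind it was 5.91%, with 0.79% lowered. The shares of 3.40% and 5.91% rest on 12 and 15 promoters. These genes were grouped by the same contrast in the same libraries, so nothing is read from the shares.

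Grouped by the 16 gene lists, 1398 of the peaks were assigned to 411 list genes, and 603 of them (43.1%) were raised, against 35.1% of all the intronic peaks listed under IL-33 alone. No list held a lowered one. The lists were chosen with earlier results of these data known, and peaks of the same gene are not independent, so the shares are a description. The median log2 change of every list was above 0 as deposited and with median-ratio, equal-sum and quantile scaling, as it was for the peaks as a whole.

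Genes of the NF-kB pathway had the largest shares. Of their 207 intronic peaks 81 (39.1%) were listed under IL-33 alone and 57 of the 81 were raised (70.4%; median 7.45 tags in IL-33 libraries and 2.60 in vehicle libraries). They lay at 21 of the 30 genes. Beside Ikbke, the inhibitor gene Tnip1 had a peak in intron 6 with 88.2, 63.1, 67.0 and 84.9 tags in IL-33 libraries, against 2.17, 3.96, 5.36 and 2.79 in vehicle libraries, and 8 of its 11 were raised. The ubiquitin ligase adaptor gene Traf2 had a single one, at 43.3 ± 11.8 tags in IL-33 libraries and 2.48 ± 0.71 in vehicle libraries. Further genes were picked out after their values were seen: all 11 at Nfkbiz, an atypical inhibitor and co-activator, all 5 at the adaptor gene Traf1 and all 4 at Tnfaip3, the gene of the deubiquitinase A20, were raised. Of the 21 genes 18 had a raised one. At Nfkb2 0 of 2 were raised, at Map3k14 0 of 2, at Rela 0 of 1 and at Rel 1 of 3.

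Upstream of NF-kB, 25 of 47 peaks at genes of IL-1 and Toll-like receptor signalling were raised (53.2%). The IL-33 co-receptor gene Il1rap had 17.5 ± 8.02 tags in IL-33 libraries and 3.42 ± 0.31 in vehicle libraries at a peak in intron 2. Mapkapk2, a kinase that stabilises cytokine mRNA through its targets, had 21.2 ± 6.17 after IL-33 and 1.70 ± 0.58 after vehicle. The single peak of this kind at Il1rl1, the gene of ST2 itself, had means of 8.09 tags in IL-33 libraries and 4.08 in vehicle libraries and was not raised; it was picked out after its values were seen.

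Pattern recognition and scavenger receptors, the subject named in the series title, had 56 peaks at 27 of 45 genes, and 30 were raised (53.6%). At the fatty acid and lipoprotein scavenger receptor gene Cd36, intron 1 held 27.4, 7.78, 20.3 and 34.5 tags in IL-33 libraries, against 4.09, 4.23, 4.56 and 3.35 in vehicle libraries. The groups did not overlap, although library 2 was far under the other IL-33 libraries. Nod2, a sensor of bacterial muramyl dipeptide, had 19.1 ± 6.17 tags in IL-33 libraries and 1.06 ± 0.43 in vehicle libraries. The strongest at Tlr2, the lipoprotein receptor, lay in intron 2, 29 bases from a vehicle-listed peak, had 26.3, 16.6, 16.4 and 26.2 tags in IL-33 libraries, against 11.8, 16.9, 11.6 and 18.6 in vehicle libraries, and did not pass as deposited (log2 change 0.50). It did pass with median-ratio and equal-sum scaling and in edgeR with TMM. All 6 at the scavenger receptor gene Marco, picked out after their values were seen, were raised, the strongest with means of 9.24 tags after IL-33 and 3.81 after vehicle.

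Cytokine and chemokine genes had 31 of the peaks, 20 of them raised (64.5%). The interleukin-1 receptor antagonist gene Il1rn had 22.8, 18.6, 13.3 and 21.7 tags in IL-33 libraries, against 0.77, 0.66, 2.51 and 0.56 in vehicle libraries, in intron 1. Il1a had 11.6 ± 0.76 tags in IL-33 libraries and 3.05 ± 1.14 in vehicle libraries, and Tnfsf9, the 4-1BB ligand gene, 18.99 ± 5.83 after IL-33 and 1.99 ± 1.78 after vehicle at a peak inside Gm11110. All 5 at Il12b, picked out after their values were seen, were raised at low levels, the strongest with means of 7.03 tags after IL-33 and 0.64 after vehicle. Among cytokine receptor and SOCS genes 23 of 65 were raised (35.4%), a share near the 35.1% over all the peaks. Those named by rule were at the IL-15 receptor gene Il15ra (31.9 ± 15.3 tags in IL-33 libraries, 3.50 ± 0.36 in vehicle libraries), at Tgfbr2 (17.3 ± 5.88 after IL-33 and 3.89 ± 1.56 after vehicle), and in intron 18 of Clec16a, nearest to Socs1 (17.99 ± 7.83 after IL-33 and 1.31 ± 0.95 after vehicle).

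Among transcription factors outside the bZIP family, 102 of 256 peaks were raised (39.8%), a share near the 35.1% over all the intronic peaks listed under IL-33 alone. In the bZIP list 21 of 41 were raised (51.2%). Over all peaks the share was 9.83%. Rbpj, the DNA-binding effector of Notch, had 55.4 ± 16.5 tags in IL-33 libraries and 17.2 ± 5.76 in vehicle libraries. Foxp1, a forkhead repressor, had 42.5 ± 15.5 after IL-33 and 3.49 ± 1.55 after vehicle, and the Kruppel-like factor gene Klf7 35.6 ± 13.2 after IL-33 and 4.54 ± 2.46 after vehicle. At Etv6, an ETS repressor, 12 of the 21 nearest peaks were raised, the strongest with 17.4 ± 8.17 after IL-33 and 3.02 ± 0.82 after vehicle.

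Survival genes had 25 of 47 raised (53.2%). Among them were peaks at Bcl2l1, the gene of BCL-XL (19.6 ± 3.50 tags in IL-33 libraries, 1.03 ± 0.88 in vehicle libraries), and at Cflar, the gene of the caspase-8 inhibitor cFLIP, where 9 of 15 were raised. Bcl2a1a had 29.0 ± 10.4 after IL-33 and 2.81 ± 0.70 after vehicle, but it has near-identical copies and its assignment is uncertain. In the glycolysis list 29 of 55 were raised (52.7%), 20 of them at Pfkfb3. Beside it, the sugar transporter gene Slc2a6 had 15.9 ± 2.40 after IL-33 and 4.56 ± 1.64 after vehicle.

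Of 171 at PI3 kinase, phosphoinositide and G protein genes 74 were raised (43.3%), 23 of them in the Pik3r5 chain. Shares near or under that of all the peaks, beside cytokine receptors and SOCS, were found for cholesterol and lipid handling (17 of 47). They were also found for integrins and adhesion (24 of 74), MAP kinases and their phosphatases (18 of 56) and lipid mediators (15 of 53). In these, Acsl1, a fatty acid activating enzyme gene, had 28.1 ± 15.6 after IL-33 and 3.61 ± 0.60 after vehicle, the hyaluronan receptor gene Cd44 29.4 ± 11.3 after IL-33 and 5.71 ± 0.82 after vehicle, and the stress kinase gene Map3k5 30.03 ± 13.8 after IL-33 and 1.59 ± 0.28 after vehicle. Tbxas1, the thromboxane synthase gene, had 18.4 ± 8.63 after IL-33 and 6.14 ± 2.67 after vehicle, was raised and yet overlapped between groups.

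Homeostatic microglia genes stood lowest of the 16 lists, with 20 of 80 raised (25%) and a median of 5.52 tags in IL-33 libraries and 3.73 in vehicle libraries. The raised ones named by rule were at the potassium channel gene Kcnk13 (29.9 ± 9.63 tags in IL-33 libraries, 7.58 ± 2.26 in vehicle libraries) and in introns of other genes, namely of Pdgfrb next to Csf1r (16.7 ± 3.41 after IL-33 and 2.34 ± 0.41 after vehicle) and of Col15a1, assigned to Tgfbr1 (16.6 ± 9.44 after IL-33 and 1.62 ± 0.52 after vehicle). The 5 peaks of this kind at P2ry12, the microglial purinergic receptor gene, had IL-33 means of up to 10.6 tags and 0 were raised, and of the 13 at Mef2c 6 were raised; both genes were picked out after their values were seen.

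**Figure D5:**
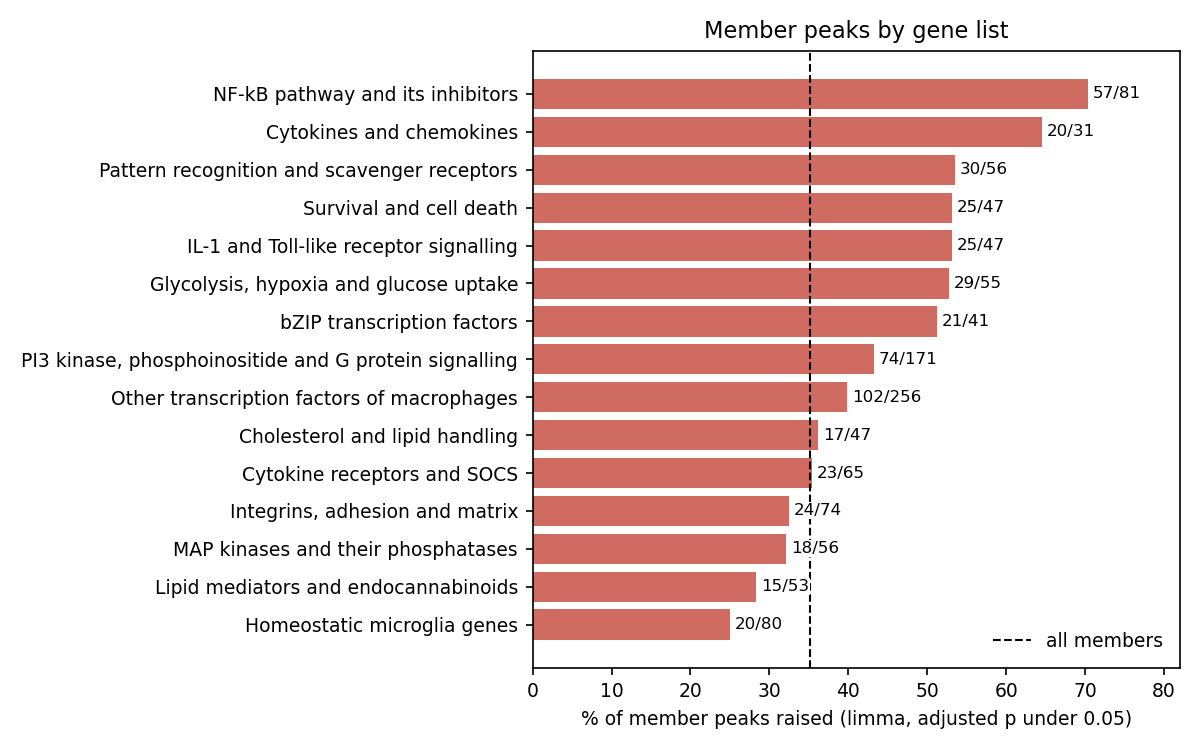
Percentage of the intronic peaks listed under IL-33 alone that were raised in limma (x), for 15 of the 16 gene lists (y), with the number raised and the number of peaks beside each bar. The dashed line marks 35.1% over all 10603 peaks; the NF-kB list reached 70.4% and the homeostatic microglia list 25%.

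Most of the peaks lay far from start sites. Intron 1 held 46.5% of them, against 42.7% of intronic peaks in both lists and 40.3% of those listed under vehicle alone. Start sites lay at a median of 13.6 kb, against 14.8 kb and 18.8 kb in those classes. The host gene was also the gene with the nearest start for 77.5% (8191 of 10566 with a matched host). Within 1 kb of a start 141 of 906 were raised (15.6%), with medians of 7.07 tags in IL-33 libraries and 4.84 in vehicle libraries, against 38.2% of the 5447 at 10 to 100 kb. Median length, end minus start, was 259 bases, against 279 for intronic peaks in both lists. By chromosome the share of intronic peaks listed under IL-33 alone was 24.9% on chromosome 2 and 19.5 to 24.2% on the others.

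Repeats were annotated at 2227 of 10603 (21%), against 15.0% of intronic peaks in both lists and 17.4% of those listed under vehicle alone. SINEs made up 6.70% against 4.29% and 6.18%, LTR elements 7.51% against 5.62% and 5.57%, and LINEs 4.57% against 3.26% and 3.37%. CpG islands were annotated at 3.03%, against 5.40% and 4.15%. The rodent SINE ID_B1, picked for the highest share among the repeat names compared, had 54 of its 130 intronic peaks (41.5%) listed under IL-33 alone. A further 21 of the 130 were listed under vehicle alone, against 4628 of all 48241 intronic peaks. Of the 54, 17 were raised (31.5%). In the old MIR family 57 of 122 peaks were raised (46.7%), and in the rodent B2 family 39 of 205 (19.02%). These were the highest and lowest shares among the SINE, LTR and LINE families compared. The others lay between, at 30.8 to 40.5%. The share was 35.1% over all the intronic peaks listed under IL-33 alone and 9.83% over all peaks. Median log2 changes were 0.90 in the MIR family and 0.41 in the B2 family. Nothing is read from these values, since the same contrast made the list. Level and mappability in these classes were not matched, and their part in the shares was not tested.

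The libraries of the IL-33 group did not contribute equally. Among the 3726 raised peaks the median was 9.56, 5.78, 7.26 and 11.2 tags in IL-33 libraries 1 to 4, against 2.30, 2.38, 2.05 and 2.09 in vehicle libraries. Library 2 was the lowest of its group at 2476 and library 4 the highest at 2272. Scaled to equal sums of tags in peaks, the medians were 7.96, 10.1, 8.21 and 8.88 in IL-33 libraries and 2.16, 2.12, 2.45 and 1.97 in vehicle libraries, and library 2 was then the highest at 1628 peaks. The order of the IL-33 libraries thus turned with the scaling, while each stayed above all vehicle medians under both. Without IL-33 library 2 the number raised was 5240, and without IL-33 library 4 it was 3158.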

How the data were processed

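ATAC-seq of cortical microglia was analysed in 8 libraries, 4 per treatment. Per the file headers, the authors counted tags over IDR peaks with HOMER annotatePeaks on mm10 (at most 3 tags per position) and deposited a signal, tags per peak scaled to 10000000 per library. The submitters' processing notes also name Bowtie2, DESeq2 and GRCm38; other steps, the transposase shift included, are not given in the sources used here. The deposited peak score (lowest 540) was not tested. Steps of the signal gave whole reads for 100% of values (tolerance 0.006 tags).

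Columns name the group and not the mouse, so no sex term was fitted. The fit was limma 3.58.1 in R 4.3.3 on log2(tags + 1.15), where 1.15 is 10% of the median level of a peak, without trend or filter, two-sided, with Benjamini-Hochberg adjustment over 104981 peaks and threshold 0.05. edgeR 4.0.16 (quasi-likelihood) ran on the recovered reads. Both were tested on simulated data with 200 changed peaks. A floor is 3 reads and covers counting error only. Hosts were matched to RefSeq accessions for 99.7% of the intronic peaks listed under IL-33 alone.

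Named were, 1 per nearest gene and without predicted, Rik and microRNA genes, the 10 highest IL-33 means, the 10 largest log2 changes, the strongest peak of the 10 genes with the most such peaks, the strongest of up to 3 genes per list, and the 3 lowest changes, 65 in all. Members and gene lists were chosen with earlier results of these data known. A gene list that counts in the totals is not reported here. Alternatives were other pseudocounts, scalings, a filter, a variance trend, edgeR and leaving out each library.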

Additional observations from a re-analysis of the deposited data

Results flagged for a closer look

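Of 136 sets of 4 libraries (both groups at 65 named peaks and for 3 measures over all the intronic peaks or libraries), 5 had a library far from the other 3 by Dixon's criterion, and chance flags about 1 in 20. At Traf2, IL-33 library 2 had 25.82 tags, against 46.75 to 50.86 in the other IL-33 libraries. At Tgfbr2, IL-33 library 4 had 25.99 tags, against 13.44 to 15.3 in the others. At Il1rn, vehicle library 3 had 2.51 tags, against 0.56 to 0.77 in the other vehicle libraries. At Dagla, vehicle library 1 had 5.12 tags, against 8.09 to 8.65. At Mapkapk2, vehicle library 4 had 0.84 tags, against 1.92 to 2.11.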

How the results depend on the processing

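Of 1105 alternative values for the log2 changes of the 65 named peaks, 1087 kept direction and call. The 2 that reversed were at Vsig10l, which was not called: -0.17 as deposited, 0.026 with quantile normalization and 0.15 without IL-33 library 2, with -0.35 to 0.15 over the libraries left out in turn. The 12 that gained a call were at Aldoa, Fam49b and Tlr2, and the 4 that lost one were at Cdrt4os1, Tm2d1 and Rtn4rl1, each without a single library. As deposited 3726 of the intronic peaks listed under IL-33 alone were raised. A pseudocount of 5 gave 2348 raised, and the other settings gave 2530 (lowest 10% of means left out, which removed 3974 of them) to 5028 (equal sums). Leaving out 1 library gave 2956 to 5240. Lowered peaks numbered 9 as deposited, 19 with edgeR and TMM, 17 with equal sums, 19 with median-ratio scaling and 36 with quantile normalization, and 3 to 15 with 1 library left out. Their median log2 change ranged from 0.38 to 0.79. The median of all peaks was -0.12 as deposited and -0.01 with equal sums, and the intronic peaks listed under IL-33 alone lay 0.78 and 0.76 above it, 0.56 above with quantile normalization and 0.47 above with a pseudocount of 5. Of all called peaks 66.2% were raised as deposited, 51.2% with quantile normalization, 79.3% without IL-33 library 2 and 49.8% without IL-33 library 4. The cause was not tested. No paired analysis was possible because the columns carry no mouse number shared between groups. The planned motif window around peak centres was not run for want of a genome. The intronic peaks listed under IL-33 alone had median levels of 6.0 tags over IL-33 libraries and 3.37 over vehicle libraries. Both medians lay above the floor of 3 reads, which was 0.342 to 0.418 tags. Levels at the weakest sites rest on few reads and limit what single peaks show.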
